A study of Mus musculus with 6 samples.

Results

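The mouse genes named Zfp followed by a number encode zinc finger proteins, and most of them belong to the C2H2 class. The 319 genes whose symbol is Zfp, a number and at most 1 further letter were taken from a table of 11164 genes. Of these, 311 had a mean of at least 1 RPKM (reads scaled by transcript length and by library size) over the 6 libraries and were tested, among 10829 genes tested in all. The other 8 members (Zfp9, Zfp57, Zfp273, Zfp354a, Zfp558, Zfp941, Zfp964 and Zfp982) had means from 0.737 to 0.988 RPKM and entered no comparison.

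A C2H2 zinc finger is a short fold in which a pair of cysteines and a pair of histidines hold a zinc ion, and rows of such fingers read DNA letters. Many Zfp proteins also carry a KRAB domain near the start of the protein. Through it they recruit the corepressor Trim28 and, with it, the histone methyltransferase Setdb1, best known for silencing retroelements. KRAB genes arose by repeated duplication and lie in arrays of near neighbours. Other Zfp genes do different work: Zfp36 (tristetraprolin) binds AU-rich messenger RNA and brings about its decay, and Zfp598 is a ubiquitin ligase at collided ribosomes.

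The RNA came from colonies of pancreatic progenitor cells of C57Bl/6 mice aged 2 to 4 months. The starting cells were sorted for high CD133, the product of Prom1, and low CD71, and their colonies grew for 3 weeks in semi-solid methylcellulose medium that held Matrigel, serum, conditioned medium, RSPO1, nicotinamide, exendin-4 and activin B. All cells were transduced with lentivirus in polybrene and held under puromycin. The control group received 1 shRNA with no mammalian target, the Glis3 group a pool of 5 shRNA clones against Glis3 (a Krüppel-like zinc finger transcription factor), and the CD133 group a pool of 5 clones against CD133. Each of the 3 groups had 2 libraries, numbered 1 and 3, of poly(A)-selected RNA. The sort used the protein whose RNA 1 pool targets, and a single control shRNA stands against pools, so effects of that 1 shRNA are part of both comparisons with control. Nothing in the labels ties the 2 libraries of a group to different animals or separate cultures. The p-values thus reflect the spread between these libraries, which may be technical. In bulk RNA of this kind, fewer cells of a type and less RNA per cell cannot be told apart.

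Each knockdown lowered its target. Glis3 was at 26.05 and 24.22 RPKM in control, 13.31 and 11.96 with Glis3 shRNA and 24.75 and 24.19 with CD133 shRNA. Prom1 was at 191.25 and 203.42, 220.99 and 201.59, and 88.03 and 96.00 RPKM in the same order. Of 10 ductal markers 9 were in the table. Their summed RPKM was 9359 to 9958 in control, 7377 to 8647 with Glis3 shRNA and 7488 to 7802 with CD133 shRNA, a sum led by Spp1. Most of the 9 lay above 0. With Glis3 shRNA 6 did (median 0.07), with 0 past the threshold in limma and 3 at an unadjusted p under 0.05. With CD133 shRNA 7 did (median 0.25), with 4 rises and 1 fall, that of Spp1. Of all genes 8.16% rose and 3.64% fell past the threshold with CD133 shRNA. Acinar, endothelial, immune, mesenchymal and Schwann markers were represented by 1 of 11, 0 of 6, 2 of 8, 1 of 9 and 1 of 6 listed genes. The immune markers Cd68 and Cd14 summed to 401 to 428, 299 to 372 and 325 to 379 RPKM, nearly all of it Cd14. Cd68 lay above 0 and Cd14 below 0 in both knockdowns, neither past the threshold. The 5 endocrine markers in the table were at 4.41 to 10.8, 6.41 to 12.8 and 1.1 to 2.81 RPKM, in the same order. The mesenchymal gene, Fn1, was at 111.93 to 112.32 RPKM in control, 53.5 to 56.3 with Glis3 shRNA and 84.7 to 87.8 with CD133 shRNA. The Schwann and neural gene, Ncam1, was at 3.75 to 3.89, 1.22 to 1.79 and 3.30 to 3.75 RPKM and fell with Glis3 shRNA (by 0.95). Of 8 endocrine markers listed, the insulin genes Ins1 and Ins2 were not in the table. The part of these shifts in the results for Zfp genes was not tested. Depth estimated from the steps of low values was 25.8 to 29.2 M reads, a rough figure, since 59.6% to 62.6% of those values came out whole within 0.15 reads against 30.0% by spacing alone. At that depth 1 RPKM is worth 95.7 to 108.4 reads for the median member transcript of 3.71 kb.

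The label covers more than 1 kind of protein. By the finger pattern (cysteines 2 to 4 residues apart, 12 residues, then histidines 3 to 5 apart) in the longest GENCODE M21 product, 310 members had at least 1 finger. The median was 10 fingers, and Zfp142 had the most, 36. The 9 members with no match were Zfp36, Zfp185, Zfp330, Zfp365, Zfp503, Zfp703, Zfp750, Zfp839 and Zfp935. Zfp36 has CCCH fingers, which the pattern does not read. A KRAB-type start was assigned to 189 members whose part before the fingers aligned to that of Zfp57, Zfp568 or Zfp809 with a score of at least 80. The nearest below were Zfp213 (74), Zfp651 (69) and Zfp180 (67), and the nearest above Zfp263 (85), Zfp212 (86), Zfp13 (86) and Zfp597 (89). KRAB-type members had a median of 12 fingers and the other 130 a median of 7.

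Close copies limit what a read can be assigned to. Over 10% of the 50-base words of the transcript was shared with another gene for 58 members, 51 of them KRAB-type, while the median member shared 0.31%. Exons of 76 members overlap a gene on the opposite strand and those of 31 overlap one on the same strand. The library kit keeps strand. How counting treated strand is not given in the sources used here, so values of overlapping genes are less certain.

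Zfp genes were expressed at low levels. The median of the members' mean RPKM was 4.37 (quartiles 2.37 and 7.52), against 9.50 (quartiles 4.18 and 20.6) for all genes in the table. A mean of at least 10 RPKM was reached by 53 members, 16.6%, against 48.1% of all genes, and at least 20 RPKM by 15 members, 4.70%, against 25.8%. KRAB-type members had a median of 3.28 RPKM. Those that are not KRAB-type had a median of 5.87 with 5 or more fingers and of 7.31 with fewer. Together the 319 members made up 0.744% to 0.810% of the RPKM sum of a library. No test is attached to these levels, which describe genes that were chosen by name.

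**Figure D1:**
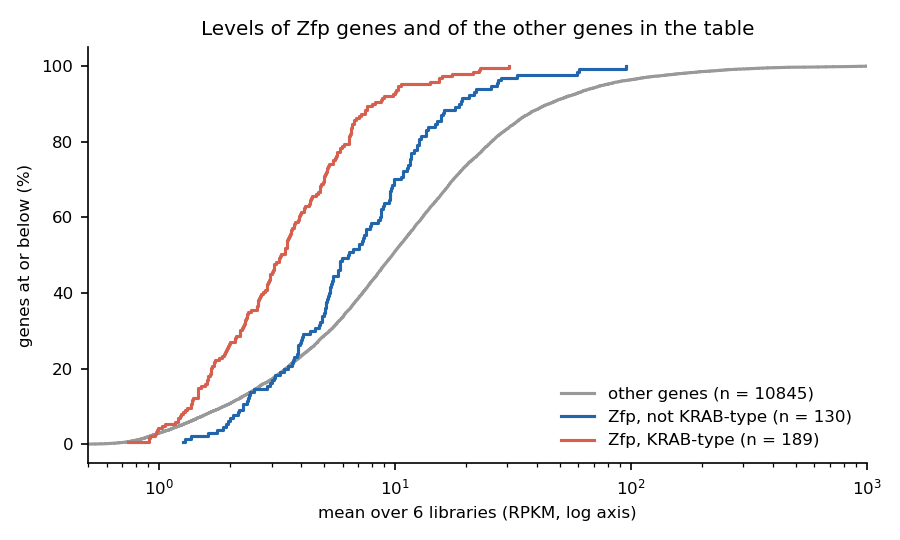
Cumulative share of genes (vertical axis, percent) at or below a mean RPKM over 6 libraries (horizontal axis, log scale from 0.5 to 1000), for KRAB-type Zfp genes, the other Zfp genes and all other genes in the table. The curve of KRAB-type genes lies farthest to the left, with a median of 3.28 RPKM, and no KRAB-type gene exceeds 30.4 RPKM.

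Here and below, the values of a member are given in the order control, Glis3 shRNA, CD133 shRNA, with replicate 1 before replicate 3. The highest member was Zfp36, at 111.68 and 97.81, 111.23 and 95.20, and 74.64 and 84.02 RPKM. Both CD133 libraries lay below the other 4, which overlapped. Zfp706, a small protein with a single finger by the pattern, followed at 58.76 and 63.34, 61.21 and 60.11, and 59.38 and 59.92 RPKM. Each knockdown overlapped control, and both Glis3 libraries lay just above both CD133 libraries. Zfp703, a corepressor of the NET family, stood at 57.88 and 54.22, 66.91 and 67.44, and 56.03 and 53.38 RPKM, with both Glis3 libraries above the other 4. Zfp106, an RNA-binding protein needed by motor neurons, stood at 36.30 and 32.66, 29.92 and 34.51, and 32.67 and 31.58 RPKM, and its groups overlapped. Zfp809, the KRAB protein that silences murine leukaemia virus copies, was the highest KRAB-type member, at 31.05 and 27.49, 30.46 and 31.30, and 29.45 and 32.54 RPKM, again with overlap. The next 3 were Zfp664 (means 26.9, 29.8 and 28.3 RPKM), Zfp207 (25.1, 28.7 and 28.4) and Zfp598 (25.9, 26.4 and 29.4).

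The control libraries differed from each other in these genes. Of 311 members, 229 were higher in control library 1 than in control library 3 and 80 were lower, with a median difference of 0.06 in log2(RPKM + 1), while 48.3% of all genes were higher there. With CD133 shRNA 111 members were higher in library 1 and 195 lower, and with Glis3 shRNA 146 and 161. The summed RPKM of the members was 2186 in control library 1 and 2077 in control library 3. The median fold change of the whole set against control is therefore given with and without each control library.

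The Glis3 pool was compared with control to see which Zfp genes differ between these libraries. Few passed the threshold, an adjusted p under 0.05 in limma with Benjamini-Hochberg adjustment over all genes tested. Of 311 members 8 rose and 2 fell, 3.22%, while 12.9% of all genes passed (8.39% higher and 4.53% lower). At an unadjusted p under 0.05 there were 39 members, 12.5%, against 30.5% of all genes. The median log2 fold change of members was 0.01, with 162 above 0 and 149 below, against 0.04 for all genes. It was 0.035 (185 above 0) without control library 1 and -0.031 (127 above 0) without control library 3. With libraries centred on their medians it was -0.049 (93 above 0). For all genes these medians were 0.040, 0.046 and -0.013, so members lay closest to all genes without control library 1. The median size of the change was 0.08 for members and 0.11 for all genes. In 78 members (25.1%) both Glis3 libraries lay above both controls and in 73 (23.5%) below, against 38.5% and 21.1% of all genes. No member passed when control library 1 or control library 3 was left out of the limma fit. Then 30 and 23 members had an unadjusted p under 0.05, and 0.194% and 0.813% of all genes passed. Without Glis3 library 3 2 members passed. With libraries centred on their medians there were 5 rises and 5 falls, and after quantile normalization 6 and 4. An unadjusted p under 0.05 was then reached by 58 and 56 of 311 members, and by 29.5% and 30.0% of all genes.

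**Figure D2:**
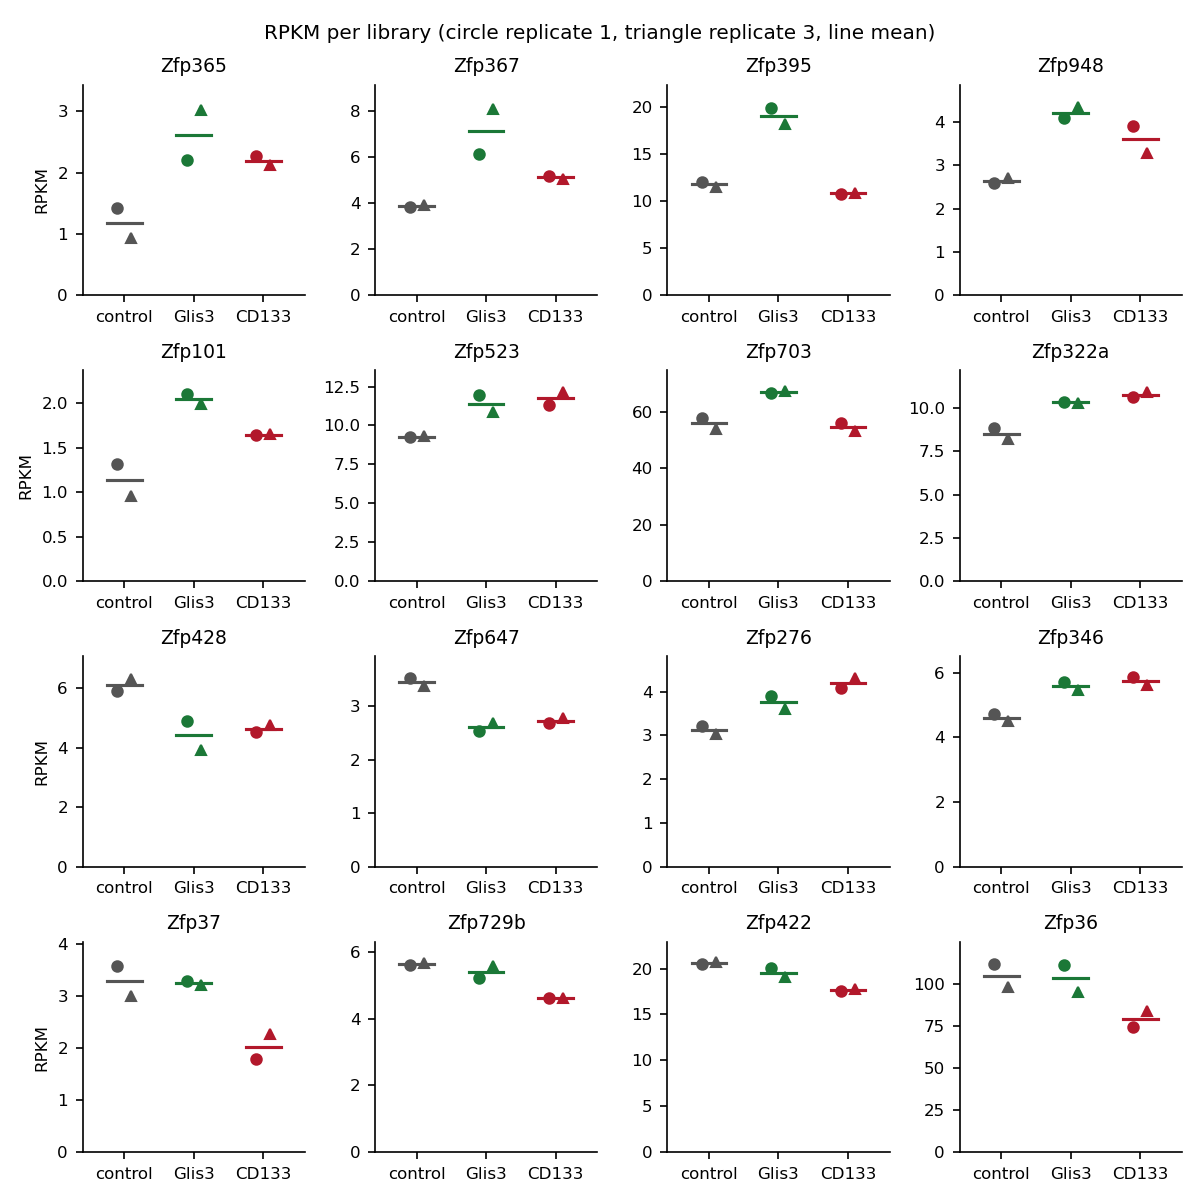
RPKM in each of the 6 libraries (vertical axes, each from 0, in RPKM) of the 15 Zfp genes past the threshold against control in at least 1 knockdown, and of Zfp36, with circles for replicate 1, triangles for replicate 3 and lines for group means. Zfp395 and Zfp703 stand high with Glis3 shRNA alone, Zfp322a and Zfp523 stand above control in both knockdowns, and Zfp37 is low with CD133 shRNA alone.

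Zfp395, a DNA-binding factor also known as papillomavirus binding factor, showed the smallest p. It was at 12.04 and 11.53, 19.91 and 18.15, and 10.80 and 10.86 RPKM. Both Glis3 libraries lay far above the other 4, and both CD133 libraries below both controls. Its mean rose from 11.8 ± 0.361 to 19.0 ± 1.24 RPKM (SD, n = 2 each), and the log2 fold change was 0.65 (SE 0.062, adjusted p = 0.0052, limma). The gene (ENSMUSG00000034522.10) lies at chr14:65358389-65398930 on the plus strand of GRCm38. Its call was lost only without control library 1 or 3, and kept in 13 of 15 alternatives.

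Zfp367, a C2H2 factor (ENSMUSG00000044934.13, chr13:64133018-64153202, minus strand), was at 3.83 and 3.93, 6.13 and 8.10, and 5.18 and 5.05 RPKM. Every knockdown library lay above both controls, the Glis3 libraries highest and farthest apart. It rose by 0.72 on the log2 scale with Glis3 shRNA (SE 0.112, adjusted p = 0.0132, limma), and its CD133 value of 0.33 (adjusted p = 0.105) did not pass. The Glis3 call was lost without control library 1 or 3 and kept in the other 13 alternatives. Genes of the cell cycle rose in the same libraries, where 8.39% and 8.16% of all genes rose past the threshold. Of 23 listed genes 21 rose in the Glis3 comparison (median 0.79) and 15 in the CD133 comparison (median 0.52). Their part in the rise of Zfp367 was not tested.

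Promoter sequences (RefSeq, GRCm38.p6, 250 bases before to 50 after a start) matched 266 of the 319 members, with 323 promoters, and not Zfp395 or Zfp703. The E2F letters TTTCCCGC and TTTGGCGC, which E2F factors of the cell cycle bind, were sought on both strands. They occurred in 4.02% of the members' promoters, 3.06% of those of genes in the table and 1.56% of all promoters. Both annotated starts of Zfp367 hold one. Its promoters are printed 5′ to 3′ with E2F matches and CCAAT boxes (CCAAT or ATTGG) in capitals; a match is a description of the letters, not a bound site.
Zfp367 first start (chr13:64153150-64153449, minus strand): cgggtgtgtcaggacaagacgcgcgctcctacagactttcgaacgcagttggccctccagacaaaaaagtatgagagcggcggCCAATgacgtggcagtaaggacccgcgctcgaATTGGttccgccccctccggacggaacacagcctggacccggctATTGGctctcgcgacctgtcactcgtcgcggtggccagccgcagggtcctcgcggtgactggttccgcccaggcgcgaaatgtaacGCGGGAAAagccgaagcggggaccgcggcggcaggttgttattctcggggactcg
Zfp367 second start (chr13:64152324-64152623, minus strand): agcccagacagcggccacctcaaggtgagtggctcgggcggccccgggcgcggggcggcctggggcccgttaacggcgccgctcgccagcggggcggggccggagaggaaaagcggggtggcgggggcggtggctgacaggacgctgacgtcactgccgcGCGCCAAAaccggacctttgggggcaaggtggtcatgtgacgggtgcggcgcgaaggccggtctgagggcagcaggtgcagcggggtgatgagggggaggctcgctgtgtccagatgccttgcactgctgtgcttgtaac

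The other 11 tested members with an E2F match did not pass in any comparison. Over all 12 the median log2 fold change was 0.05 with Glis3 shRNA, with 7 above 0 and 5 below, and 0.05 with CD133 shRNA, with 8 above and 4 below. With CD133 shRNA the largest value among the 12 was that of Zfp414, at 6.79 and 6.88, 8.80 and 7.18, and 8.98 and 8.73 RPKM, a log2 fold change of 0.33 (adjusted p = 0.0582, limma). Its knockdown libraries all lay above both controls.

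A GLIS motif, TGGGGGGT on either strand, was sought because Glis3 belongs to the factors that bind such G-rich boxes. It occurred in 0.929% of the members' promoters, 1.40% of those of genes in the table and 1.53% of all promoters. The 3 members that hold it are KRAB-type. Their promoters are printed with the GLIS letters and any CCAAT box in capitals.
Zfp60 (chr7:27731159-27731458, plus strand): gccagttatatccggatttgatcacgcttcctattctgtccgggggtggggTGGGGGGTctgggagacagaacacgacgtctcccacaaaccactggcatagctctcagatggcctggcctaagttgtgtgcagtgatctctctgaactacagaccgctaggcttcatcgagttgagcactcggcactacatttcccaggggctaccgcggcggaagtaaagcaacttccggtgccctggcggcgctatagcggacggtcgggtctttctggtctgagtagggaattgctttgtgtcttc
Zfp605 (chr5:110109842-110110141, plus strand): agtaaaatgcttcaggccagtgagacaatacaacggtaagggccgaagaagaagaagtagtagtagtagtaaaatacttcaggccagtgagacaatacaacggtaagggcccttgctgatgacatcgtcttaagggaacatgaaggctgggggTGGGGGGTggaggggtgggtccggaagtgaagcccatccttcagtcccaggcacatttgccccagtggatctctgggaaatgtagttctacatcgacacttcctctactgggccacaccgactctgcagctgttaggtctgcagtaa
Zfp606 (chr7:12478055-12478354, plus strand): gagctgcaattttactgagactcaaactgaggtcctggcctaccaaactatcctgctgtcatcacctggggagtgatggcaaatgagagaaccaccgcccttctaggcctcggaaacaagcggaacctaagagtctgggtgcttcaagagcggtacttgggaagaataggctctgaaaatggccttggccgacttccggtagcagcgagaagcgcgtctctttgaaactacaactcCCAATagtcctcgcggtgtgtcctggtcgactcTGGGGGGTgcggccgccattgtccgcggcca

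Zfp60 was at 5.24 and 4.74, 5.25 and 5.22, and 4.75 and 4.92 RPKM. Zfp605 was at 2.86 and 2.48, 2.39 and 2.89, and 2.42 and 2.67 RPKM. Zfp606 was at 4.51 and 4.20, 4.10 and 3.70, and 3.53 and 4.01 RPKM. Glis3 and control libraries overlapped for Zfp60 and Zfp605. For Zfp606 both Glis3 libraries lay below both controls. The log2 fold changes with Glis3 shRNA were 0.06, -0.01 and -0.13 for Zfp60, Zfp605 and Zfp606, none past the threshold (limma adjusted p from 0.334 to 0.944), and 0 of the 3 had an unadjusted p under 0.05.

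Of the other members that rose with Glis3 shRNA, Zfp365, a coiled-coil protein of the centrosome region, was at 1.42 and 0.93, 2.21 and 3.02, and 2.27 and 2.12 RPKM. All 4 knockdown libraries lay above both controls. Its log2 fold change was 0.73 (SE 0.146, adjusted p = 0.0258, limma), and with CD133 shRNA 0.56 (adjusted p = 0.0524). The KRAB-type Zfp948 was at 2.59 and 2.70, 4.09 and 4.34, and 3.92 and 3.28 RPKM, and the KRAB-type Zfp101 at 1.32 and 0.96, 2.10 and 1.99, and 1.64 and 1.65 RPKM. In both, the knockdown libraries lay above both controls without overlap. Zfp948 rose by 0.52 (SE 0.086, adjusted p = 0.0158) and Zfp101 by 0.51 (SE 0.101, adjusted p = 0.0251) with Glis3 shRNA in limma. Zfp703, given above, rose by 0.26 (SE 0.057, adjusted p = 0.0339), while Zfp503, the other NET family corepressor, was at 5.79 and 4.98, 5.12 and 4.88, and 4.04 and 4.66 RPKM and did not pass.

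The 2 members that fell were Zfp647 and Zfp428. Zfp647, a KRAB-type gene with 13 fingers, was at 3.53 and 3.37, 2.53 and 2.69, and 2.68 and 2.78 RPKM. Both knockdowns lay below both controls. It fell by 0.30 with Glis3 shRNA (SE 0.069, adjusted p = 0.038, limma), and its CD133 value was -0.25 (adjusted p = 0.06). Zfp428, a short protein of 189 residues with 1 finger by the pattern, was at 5.91 and 6.31, 4.89 and 3.92, and 4.51 and 4.76 RPKM, again with both knockdowns below both controls. It fell by 0.40 with Glis3 shRNA (SE 0.095, adjusted p = 0.0415), and its CD133 value was -0.34 (adjusted p = 0.0666). Next by p was the KRAB-type Zfp551, at 2.40 and 2.08, 1.63 and 1.29, and 1.37 and 1.62 RPKM, with a log2 fold change of -0.40 that missed the threshold (adjusted p = 0.0568). Its 4 knockdown libraries also lay below both controls.

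The CD133 pool, compared with the same control libraries, gave 4 rises and 3 falls among 311 members, 2.25%, while 11.8% of all genes passed (8.16% higher and 3.64% lower). At an unadjusted p under 0.05 there were 57 members, 18.3%, against 31.1% of all genes. The median log2 fold change was -0.02, with 135 members above 0 and 176 below, against 0.04 for all genes. It was 0.01 (162 above 0) when control library 1 was left out and -0.05 (114 above 0) when control library 3 was. For all genes these medians were 0.038 and 0.047. Both CD133 libraries lay above both controls in 65 members (20.9%) and below both in 103 (33.1%), against 40.3% and 22.1% of all genes. No member passed in limma without control library 1, control library 3 or CD133 library 1, where 35, 41 and 27 had an unadjusted p under 0.05 and at most 0.222% of all genes passed. Without CD133 library 3 there was 1 call, and without either Glis3 library, which only add to the estimate of spread, there were 18. With libraries centred on their medians there were 2 rises and 13 falls, and after quantile normalization 1 and 14. Members above 0 then numbered 90 and 72 (28.9% and 23.2%), against 47.5% and 48.1% of all genes. The balance of rises and falls thus depended on the scaling. An unadjusted p under 0.05 was then reached by 84 and 86 of 311 members, and by 29.1% and 30.3% of all genes.

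Zfp37, a KRAB-type gene with 12 fingers (ENSMUSG00000028389.12, chr4:62189540-62231047, minus strand), was at 3.59 and 3.01, 3.29 and 3.22, and 1.79 and 2.27 RPKM. Both CD133 libraries lay below the other 4, and the Glis3 libraries lay between the controls. It fell from 3.30 ± 0.41 to 2.03 ± 0.339 RPKM (SD, n = 2 each) with CD133 shRNA, and its log2 fold change was -0.51 (SE 0.105, adjusted p = 0.0307, limma). Between the knockdowns its difference was 0.49 (adjusted p = 0.0556). Zfp422, also called Krox-26 and known from tooth development, was at 20.53 and 20.67, 20.03 and 19.07, and 17.54 and 17.79 RPKM. CD133 libraries were lowest and Glis3 libraries between, without overlap. It fell by 0.21 (SE 0.051, adjusted p = 0.0459, limma). Of its 50-base words 7.52% are shared with other genes, the closest being a pseudogene copy. Zfp729b, a KRAB-type gene with 30 fingers, was at 5.61 and 5.67, 5.22 and 5.56, and 4.62 and 4.62 RPKM, with the CD133 libraries lowest. It fell by 0.24 (SE 0.061, adjusted p = 0.0499). It shares 40.8% of its words with other genes, the closest being the overlapping gene model Gm49345, so this value may be split between loci.

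Among the rises with CD133 shRNA, Zfp276 was at 3.22 and 3.04, 3.89 and 3.61, and 4.08 and 4.31 RPKM, each knockdown library above both controls. It rose by 0.33 (SE 0.07, adjusted p = 0.0321, limma) and its Glis3 value was 0.20 (adjusted p = 0.107). Its exons overlap those of Fanca and Vps9d1 on the opposite strand. Fanca, a DNA repair gene, was at 1.57 and 1.55, 2.50 and 3.02, and 2.86 and 2.47 RPKM and rose in both knockdowns (0.55 and 0.52). The part of this overlap in the value of Zfp276 was not tested. Zfp346, a double-stranded RNA binding protein, was at 4.71 and 4.52, 5.71 and 5.48, and 5.86 and 5.61 RPKM, with all 4 knockdown libraries above both controls. It rose by 0.26 with CD133 shRNA (SE 0.061, adjusted p = 0.0413), and its Glis3 value of 0.23 missed the threshold (adjusted p = 0.0544).

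Zfp322a and Zfp523 rose in both knockdowns, the 2 members of 15 called to do so; both comparisons use the same control libraries. Zfp322a, a C2H2 factor studied in embryonic stem cells, was at 8.84 and 8.22, 10.38 and 10.32, and 10.63 and 10.96 RPKM. Its log2 fold changes were 0.25 with Glis3 shRNA (adjusted p = 0.0379, limma) and 0.31 with CD133 shRNA (adjusted p = 0.0252), and the knockdowns lay clear of both controls. Zfp523, the mouse counterpart of ZNF76 and a relative of Zfp143, was at 9.25 and 9.30, 11.94 and 10.84, and 11.32 and 12.17 RPKM, again clear of both controls. Its log2 fold changes were 0.27 with Glis3 shRNA (adjusted p = 0.0461) and 0.31 with CD133 shRNA (adjusted p = 0.0332). The Glis3 calls of both genes, and the CD133 call of Zfp523, were lost after median centring and after quantile normalization. Zfp143 itself was at 7.65 and 7.48, 7.04 and 6.61, and 7.64 and 7.61 RPKM and did not pass. Their main promoters are printed because they moved the same way in both pools. A CCAAT box occurred in 47.4% of members' promoters and 37.4% of all promoters, and only that of Zfp322a holds one (capitals).
Zfp322a (chr13:23369159-23369458, minus strand): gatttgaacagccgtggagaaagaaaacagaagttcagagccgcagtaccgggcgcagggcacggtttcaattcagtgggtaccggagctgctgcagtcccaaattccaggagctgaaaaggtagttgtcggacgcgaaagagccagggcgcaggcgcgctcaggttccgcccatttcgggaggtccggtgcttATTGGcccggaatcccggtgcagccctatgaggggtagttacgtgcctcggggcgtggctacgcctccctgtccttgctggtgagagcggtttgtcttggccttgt
Zfp523 (chr17:28176946-28177245, plus strand): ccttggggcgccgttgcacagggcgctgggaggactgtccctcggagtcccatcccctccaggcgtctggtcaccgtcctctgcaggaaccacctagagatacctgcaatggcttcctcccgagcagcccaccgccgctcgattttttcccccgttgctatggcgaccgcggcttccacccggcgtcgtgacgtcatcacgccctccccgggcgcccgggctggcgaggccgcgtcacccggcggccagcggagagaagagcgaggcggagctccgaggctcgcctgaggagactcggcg

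The 2 knockdowns were also compared with each other. Zfp395 (log2 difference 0.76, adjusted p = 0.00617, limma) and Zfp703 (0.29, adjusted p = 0.0464) were higher with Glis3 shRNA and no member was lower, 0.643% of 311, while 4.06% of all genes passed (1.61% higher and 2.46% lower). At an unadjusted p under 0.05 there were 37 members, 11.9%, against 21.9% of all genes. Both Glis3 libraries lay above both CD133 libraries in 103 members (33.1%, against 27.9% of all genes) and below in 45 (14.5%, against 26.8%). The median difference was 0.02, with 182 members above 0 and 129 below, against 0.0020 for all genes. It was 0.01 (166 above 0) when CD133 library 1 was left out and 0.04 (198 above 0) when CD133 library 3 was. Without CD133 library 1 no member passed, 15 had an unadjusted p under 0.05, and Zfp395 had an adjusted p of 0.0503. The lowest values by p were those of Zfp697 (-0.39, adjusted p = 0.0855), Zfp385a (-0.26, adjusted p = 0.0934) and Zfp219 (-0.17, adjusted p = 0.125), none past the threshold. Zfp697 stood highest with CD133 shRNA, at 4.97 and 4.09 RPKM against 3.00 to 3.57 in the other 4 libraries, Zfp385a at 9.67 and 9.62 RPKM against 7.33 to 8.29, and Zfp219 lowest with Glis3 shRNA, at 20.28 and 19.47 RPKM against 22.14 to 23.17.

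Changes in members were small. A log2 fold change beyond 0.5 in either direction was seen in 6 members with Glis3 shRNA (1.93%, against 6.17% of all genes), 3 with CD133 shRNA (0.965%, against 5.22%) and 1 between the knockdowns (0.322%, against 3.47%). Of the 311 tested members, 296 passed in no comparison. In both comparisons with control, the share of members past the threshold lay under that of other genes in each class of mean RPKM. Between the knockdowns it did so in the 4 classes under 20 RPKM, and above them 1 of 15 members passed (6.67%) against 4.50% of other genes. In the Glis3 comparison it was 3.85% of 52 members against 15.1% of other genes at 1 to 2 RPKM, 1.74% of 115 against 15.3% at 2 to 5, and 3.30% of 91 against 13.01% at 5 to 10. It was 5.26% of 38 against 11.5% at 10 to 20 RPKM, and 6.67% of 15 against 12.9% above. In the CD133 comparison the shares at 2 to 5, 5 to 10 and 10 to 20 RPKM were 1.74%, 3.30% and 5.26%, against 12.3%, 11.1% and 11.5% of other genes. None of the 52 members at 1 to 2 RPKM or the 15 above 20 RPKM passed in limma. These shares describe genes chosen by name, and no test of the set was made.

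**Figure D3:**
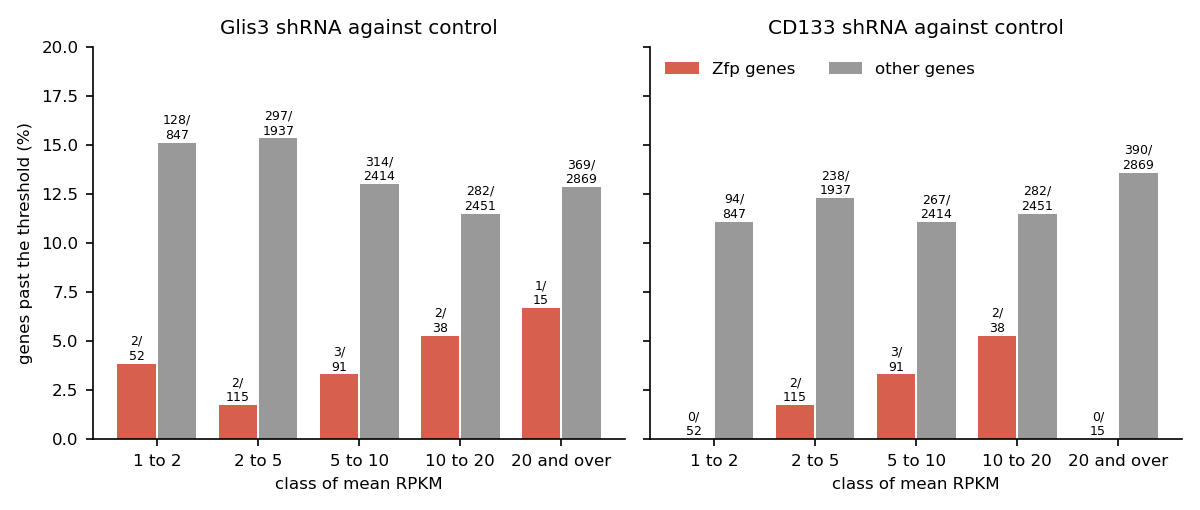
Percent of genes past an adjusted p of 0.05 (vertical axis) in 5 classes of mean RPKM (horizontal axis) for Zfp genes and other genes, with the number past the threshold over the number tested above each bar. In the Glis3 comparison the bars of Zfp genes range from 1.74% to 6.67% and those of other genes from 11.5% to 15.3%; in the CD133 comparison the lowest and highest classes of Zfp genes are at 0.

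KRAB-type members contributed 3 of the 10 calls in the Glis3 comparison (of 181 tested) and 2 of the 7 in the CD133 comparison; the 130 others contributed 7 and 5. Of the 44 members that are not KRAB-type and have under 5 fingers, 5 passed with Glis3 shRNA (11.4%, near the 12.9% of all genes). The 5 were Zfp365, Zfp367, Zfp395, Zfp428 and Zfp703. With CD133 shRNA 1 of the 44 passed (2.27%), against 4.65% of the 86 with 5 or more fingers and 11.8% of all genes. An unadjusted p under 0.05 was reached there by 15 of the 44 (34.1%), against 14.0% of the 86 and 31.1% of all genes. The median log2 fold change of KRAB-type members was -0.01 with Glis3 shRNA and -0.03 with CD133 shRNA, with 72 above 0 and 109 below in the latter. For the others the medians were 0.02 and -0.01. Without control library 1 the KRAB-type medians were 0.02 and 0.0035, against 0.040 and 0.038 for all genes. The sign of the KRAB-type medians thus rested on that library, but they lay below those of all genes with and without it. With each library centred on its median they were -0.07 and -0.08, against -0.013 and -0.0097 for all genes.

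**Figure D4:**
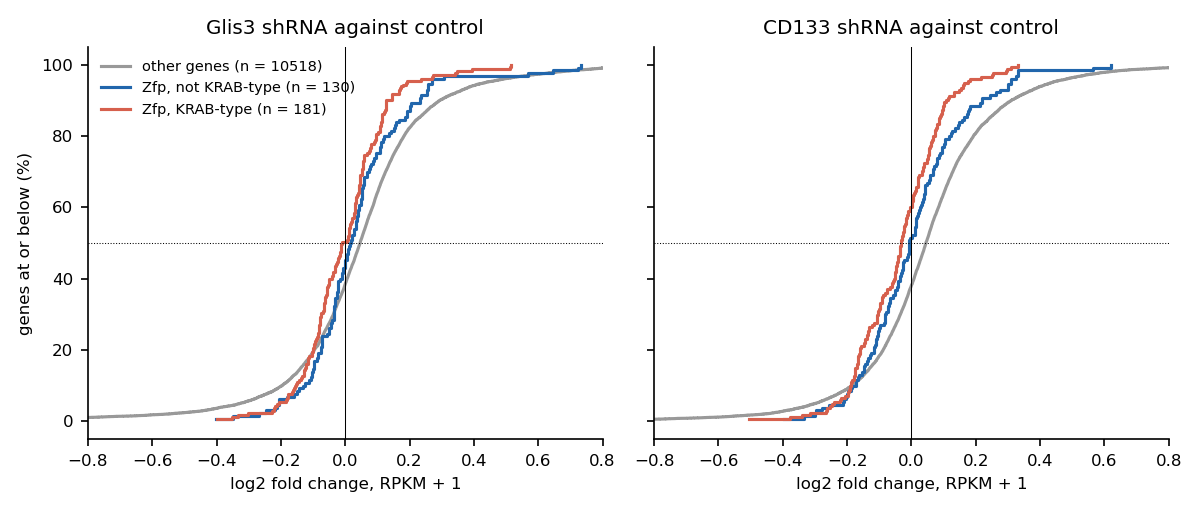
Cumulative share of genes (vertical axis, percent) at or below a log2 fold change of RPKM + 1 (horizontal axis, drawn from -0.8 to 0.8) against control, for KRAB-type Zfp genes, the other Zfp genes and all other tested genes. Both Zfp curves are steeper and cross 50% to the left of the other genes, at -0.03 for KRAB-type genes in the CD133 comparison. Without control library 1 that value is 0.0035, against 0.039 for the other genes.

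Trim28, their shared corepressor, was at 91.0 ± 0.368, 94.7 ± 0.0212 and 90.9 ± 0.587 RPKM (SD, n = 2 each) and Setdb1 at 10.8, 11.9 and 11.5 RPKM, neither past the threshold. Of 27 tested corepressor and heterochromatin genes, 3 rose with Glis3 shRNA and 2 with CD133 shRNA, and 0 fell (limma). In each comparison 8 had an unadjusted p under 0.05, against 30.5% and 31.1% of all genes. Above 0 lay 22 and 18 of the 27, against 61.2% and 61.4% of all genes. The counts of rises are near the 8.39% and 8.16% of all genes that rose past the threshold. Uhrf1, which keeps DNA methylation at replication, rose by 0.98 and 0.71 and the heterochromatin protein gene Cbx1 by 0.44 and 0.47, with Glis3 and CD133 shRNA. Trim24 rose by 0.43 with Glis3 shRNA (limma adjusted p = 0.0233). Among the KRAB proteins of that list, Zfp445, which guards imprinted genes, was at 22.89 and 20.40, 21.67 and 22.56, and 20.49 and 20.68 RPKM, and Zfp809 is given above. Each knockdown overlapped control in both genes, and neither gene passed.

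Of the 10 members listed for roles in RNA or ribosomes, 0 passed in limma with Glis3 shRNA and 1, Zfp346, rose with CD133 shRNA. Among all genes 12.9% and 11.8% passed. An unadjusted p under 0.05 was reached by 3 of the 10 with Glis3 shRNA (Zfp207, Zfp346 and Zfp593) and by 5 with CD133 shRNA. The shares of all genes at that level were 30.5% and 31.1%. Zfp36 had a CD133 log2 fold change of -0.40 (SE 0.104) that missed the threshold (adjusted p = 0.0542), and with Glis3 shRNA -0.02. Zfp36 belongs to the immediate early genes, induced within minutes of a stimulus. With CD133 shRNA 3.64% of all genes were called lower. All 20 genes on the immediate early list, which includes Zfp36 itself, lay below 0 there (median -0.37, 6 past the threshold). By comparison, 61.4% of all genes lay above 0. Among the 20 were Egr1 (-0.51) and Klf4 (-0.67). The part of the other listed genes in the value of Zfp36 was not tested. The relatives Zfp36l1 and Zfp36l2 and the rest of 17 genes of AU-rich decay passed in no comparison (limma), and 6, 3 and 3 of the 17 had an unadjusted p under 0.05 with Glis3 shRNA, with CD133 shRNA and between the knockdowns. Zfp36l1 had the smallest p of the 17 with Glis3 shRNA, at 199.86 and 181.75, 156.65 and 133.93, and 141.21 and 164.33 RPKM, below both controls in both knockdowns (Glis3 value -0.39, adjusted p = 0.0574). Of 11 tested messenger RNAs that Zfp36 is known to destabilise, 4 fell with Glis3 shRNA (Ccl2, Cxcl1, Cxcl2 and Cxcl5, by 0.77 to 1.1), and Tnf rose in both knockdowns (0.61 and 0.87). Ccl2 rose with CD133 shRNA (0.66). Of all genes 4.53% fell past the threshold with Glis3 shRNA, and 8.39% and 8.16% rose with Glis3 and CD133 shRNA.

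Zfp207, a spindle protein that loads the checkpoint protein Bub3, was at 25.77 and 24.42, 28.73 and 28.66, and 28.60 and 28.30 RPKM. Every knockdown library lay above both controls, with log2 fold changes of 0.19 (adjusted p = 0.0597, limma) and 0.17 (adjusted p = 0.071). Zfp622, a factor of large ribosomal subunit assembly, was at 19.93 and 20.13, 19.50 and 17.88, and 17.05 and 17.25 RPKM, below both controls in both knockdowns (CD133 value -0.21, adjusted p = 0.0602). Zfp598 was at 26.31 and 25.57, 27.44 and 25.28, and 28.48 and 30.31 RPKM, with the CD133 libraries highest and not past the threshold. The ribosome assembly factor Zfp593 was at 6.07 and 6.86, 5.67 and 5.27, and 5.71 and 5.52 RPKM, below both controls in both knockdowns. Zfp326, Zfp638 and Zfp830, which act in RNA processing, had means of 5.11, 8.70 and 11.6 RPKM and Glis3 values from 0.01 to 0.11.

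Of 21 members listed for sequence-specific binding or corepression, 18 were tested; Zfp354a lay below 1 RPKM, and Zfp423 and Zfp521 were not in the table. Zfp367 and Zfp703 rose with Glis3 shRNA, 2 of 18 and near the 12.9% of all genes, and 0 passed with CD133 shRNA in limma, where 11.8% of all genes did. An unadjusted p under 0.05 was reached by Zfp219, Zfp367, Zfp703 and Zfp750 with Glis3 shRNA and by Zfp335, Zfp367, Zfp503 and Zfp750 with CD133 shRNA. Zfp750, a factor of epidermal differentiation, was at 8.07 and 7.20, 8.73 and 9.56, and 9.70 and 8.75 RPKM, above both controls in both knockdowns, with a CD133 value of 0.24 (adjusted p = 0.0977). Zfp281, Zfp217 and Zfp148, with means of 12.4, 11.6 and 15.7 RPKM, did not pass. Zfp263, Zfp384, Zfp516, Zfp592, Zfp608, Zfp609 and Zfp687, with means from 3.08 (Zfp608) to 15.2 RPKM (Zfp609), did not pass either, and their values against control ran from -0.28 to 0.19, both ends being those of Zfp608. The largest disagreement between replicates was that of Zfp488, at 2.74 and 1.04, 1.38 and 3.58, and 1.75 and 1.85 RPKM, followed by Zfp462, at 3.24 and 2.04, 2.43 and 3.97, and 2.83 and 3.22 RPKM. For both the groups overlapped. Zfp692, at 4.93 and 3.19, 6.69 and 6.10, and 5.99 and 7.40 RPKM, lay above both controls in both knockdowns but did not pass (adjusted p = 0.0716 and 0.0586).

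Members lie close together in the genome. Chromosome 7 holds 75 of them (23.5%, against 7.52% of all genes in the table), chromosome 17 holds 44 (13.8% against 5.05%) and chromosome 13 holds 33 (10.3% against 3.79%). Taking members no more than 200 kb apart, 12 arrays of at least 5 held 113 members, 94 of them KRAB-type. The largest, at chr13:67038596-67827002, holds 21, all KRAB-type. Its 20 tested members had a median log2 fold change of -0.06 with Glis3 shRNA (6 above 0, 14 below) and -0.14 with CD133 shRNA (5 above, 15 below). Among all genes 61.2% and 61.4% lay above 0. Leaving out control library 1 gave a CD133 median of -0.11 for the array, and leaving out control library 3 gave -0.17. Zfp729b was the only call, and 10 of the 21 share over 10% of their 50-base words, so these values are not independent of each other.

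The array at chr7:24081924-24515682, with 9 members, had medians of -0.06 and -0.13 with 8 of 9 below 0 in the CD133 comparison. The 12 members at chr7:29768552-30169750 had medians of 0.01 and -0.05, with 11 of 12 below 0 in the CD133 comparison and 9 of 12 without control library 1. Among all genes 61.4% lay above 0 in the CD133 comparison, and 59.2% without control library 1. On chromosome 17, the 18 members at chr17:21383748-22456689, which include Zfp948, had medians of 0.04 and 0.02. The 11 at chr17:32765496-33394641, which include Zfp101, had medians of 0.01 and 0.07. After quantile normalization the second was -0.0062, against -0.0083 for all genes. With libraries centred on their medians, all 5 arrays of at least 9 members had a Glis3 median below 0 (-0.12 to -0.01). So had all genes tested (-0.013), since centring moves every gene of a comparison by the same amount. Over whole chromosomes, the CD133 median was -0.04 for members on chromosome 7, against 0.063 for other genes there. On chromosome 17 it was 0.05 for members, near the 0.056 of other genes there. With libraries centred on their medians that of members on chromosome 17 was -0.0020, against -0.0097 for all genes. These are descriptions without a test, and neighbours can share reads.

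**Figure D5:**
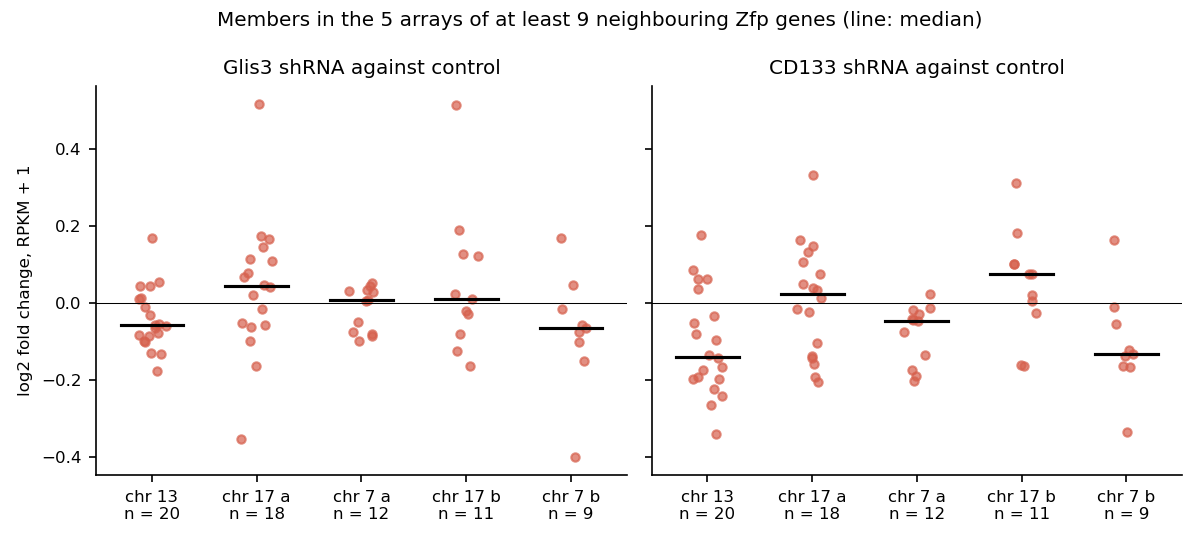
Log2 fold change of RPKM + 1 against control (vertical axis) of each tested member in the 5 arrays of at least 9 Zfp genes, with the median as a line; a is the array with the lower coordinates on chromosome 17 and the one with 12 members on chromosome 7. With CD133 shRNA the chromosome 13 array and the array of 9 on chromosome 7 lie lowest (medians -0.14 and -0.13). The array of 11 on chromosome 17 has a median of 0.07 there. After quantile normalization that median is -0.0062, against -0.0083 for all genes.

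Their promoters also differed by class. The median number of CpG pairs in 300 bases was 10.5 for KRAB-type members and 22 for the others, against 21 for genes in the table and 7 for all promoters. CCAAT boxes occurred in 54.6% of KRAB-type and 36.4% of other members' promoters. Other zinc finger families were counted in the same way (limma). Of 35 tested Zbtb genes 1 passed with Glis3 shRNA and 4 with CD133 shRNA. Of 11 Klf genes 2 and 5 passed, all falls and in part immediate early genes. Among all genes 12.9% and 11.8% passed, 4.53% and 3.64% as falls. Of 8 Zkscan and 9 Zscan genes 0 passed in either comparison (limma). At an unadjusted p under 0.05 there were 2 of each with Glis3 shRNA and 3 and 1 with CD133 shRNA.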

How the data were processed

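RPKM values of 11164 genes in 6 libraries were used as deposited by the authors, in 1 table with every column matched to a sample (0 columns without one). Per the submitters' processing notes, the tools were bcl2fastq 2.18.0.12, TopHat2 and HTSeq with build mm10; settings, the RPKM calculation and any filter are not stated in these sources, and each gene in the table reaches at least 1.00 RPKM in some library. Values were tested as log2(RPKM + 1) for genes whose mean reached 1 RPKM, with limma 3.58.1 in R 4.3.3 (means of the 3 groups, variance trend, 3 residual degrees of freedom, two-sided, Benjamini-Hochberg adjustment over 10829 genes, threshold 0.05). A fold change on this scale understates changes of low genes. The script was tested on simulated data.

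Gene models came from GENCODE M21 (all 319 members matched by symbol) and promoters from RefSeq (GRCm38.p6). Proteins were translated and aligned with Biopython 1.88, and figures drawn with matplotlib 3.10.9. Members and lists were chosen with earlier results of these data known. Named members are the largest changes past the threshold with no overlap between groups (at most 8 a direction), the 3 of smallest p where fewer than 3 passed, the 8 highest, the members of 2 role lists, those called in both knockdowns, and the 3 of largest spread between libraries; members with a printed motif and Zfp445 were added after their values were seen. Alternatives changed the pseudocount, filter, scaling, variance model, samples and replicate block, and left out each library.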

Additional observations from a re-analysis of the deposited data

How the results depend on the processing

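The number of Zfp genes past the threshold in the Glis3 comparison, 10, was 6 with a minimum mean of 5 RPKM and 6 with only the 2 groups compared, and ranged from 0 to 12 when 1 library was left out. In the CD133 comparison, 7 became 15 with median centring, 15 with quantile normalization, 12 without a variance trend and 19 with only the 2 groups compared, and ranged from 0 to 18 when 1 library was left out. Between the knockdowns, 2 became 1 without a variance trend and 1 with only the 2 groups compared, and ranged from 0 to 3. For the CD133 counts of 15, 15, 12 and 19, members at an unadjusted p under 0.05 numbered 84, 86, 61 and 52 of 311. The shares of all genes were 29.1%, 30.3%, 30.5% and 32.2%. The median log2 fold change with Glis3 shRNA, 0.0087, was -0.049 with median centring and -0.047 with quantile normalization. It ran from -0.031 to 0.035 with 1 library left out. With CD133 shRNA, -0.024 became -0.077 and -0.090, and ran from -0.050 to 0.012. Both medians thus changed sign with 1 control library left out or, with Glis3 shRNA, under another scaling. Centring moves all genes alike: their median went from 0.044 to -0.013 with Glis3 shRNA and from 0.043 to -0.0097 with CD133 shRNA. The cause of the changes with a control library left out was not tested. Counting only members with little shared sequence, an alternative chosen after seeing the data, gave 10, 6 and 2 calls. Of 24 results for named genes, 19 of them called, 18 calls were lost when either control library was left out (18 each); none of these 24 values changed sign in an alternative run.

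With the replicate number as a block, 3, 0 and 1 members passed in limma in the Glis3, CD133 and between-knockdown comparisons. An unadjusted p under 0.05 was then reached by 34, 41 and 20 of 311 members, and by 25.5%, 25.5% and 17.5% of all genes. Differences between replicates 1 and 3 correlated across 10829 genes at -0.37 (control and Glis3), -0.43 (control and CD133) and 0.03 (both knockdowns). The negative values both use the control difference. Whether libraries of the same number share a batch or culture cannot be read from these correlations, and the labels give only the number. Only 2 libraries a group limit the precision of each value.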
